A study of Mus musculus with 4 samples.

Results

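The genes described here are 8 mouse genes whose proteins are secreted onto mucosal surfaces: the secretoglobins Scgb1a1, Scgb3a1 and Scgb3a2, the gel-forming mucin Muc5b, the antimicrobial lectins Reg3b and Reg3g, and the iron-withholding proteins Lcn2 and Ltf. They were taken as every probe set that the array platform's annotation gives to these genes alone. That gave 9 probe sets of 45037, and 8 genes of 18193, with Reg3b read by 2 probe sets and each of the others by 1. The genes were chosen by name with earlier results of these same arrays in view, and so selected on their measured log2 differences between knockout and control teratomas among others. The values below are therefore a description and carry no test.

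Transcripts were measured on Affymetrix mouse arrays in 4 total RNA samples, with 1 array per group. The Snai1 knockout embryoid bodies and the F/F control embryoid bodies grew from embryonic stem cells, first in hanging drops and then in suspension without directed differentiation, and were collected on day 5. The Snai1 knockout teratoma and the F/F control teratoma grew from the same kinds of cells injected under the hind limb skin of male nude mice, which were 6 weeks old, and were collected at week 6. Nude mice lack a thymus and mature T cells but keep neutrophils, macrophages and B cells, so host leukocytes can be part of a teratoma's RNA. The labels do not say how many bodies, tumours or mice went into each RNA, nor whether each genotype was 1 cell clone. Snai1 encodes a zinc-finger repressor of epithelial genes. Its 1 probe set read 3.45 in knockout and 4.78 in control embryoid bodies, and 3.44 in the knockout and 3.59 in the control teratoma. Among these readings, only that of control embryoid bodies exceeded its array's floor, defined below, and by little, at 4.78 against 4.71. The loss of Snai1 in the knockout can therefore not be judged from these values.

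In the airway, club cells and goblet cells pour secretoglobins and mucins into the fluid lining the epithelium, and ciliated cells move that layer outwards. Reg3 lectins kill bacteria at the surface of the gut and the airway, and their genes are switched on by cytokines such as interleukin-22. Lipocalin 2 and lactoferrin deny iron to bacteria and are made both by epithelia and by neutrophils, which store them in their granules.

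All values are the authors' RMA expression values on a log2 scale, on which a difference of 1 is 2-fold. Such values do not start from a true zero, so a floor was used on every array, equal to the median over its non-control probe sets. The floor lay at 4.73 in knockout and 4.71 in control embryoid bodies, and at 5.04 in the knockout and 5.08 in the control teratoma. Readings under it were raised to it before subtraction, which makes the difference a bound. No difference is given where both arrays lay below. Each group has 1 array, so there is no spread between replicates and no replicate check of any difference below. Probe sets of the same gene gave differences with a pooled SD of 0.28 between the teratomas and 0.29 between the embryoid bodies. Between teratoma and embryoid bodies it was 0.65 in knockout and 0.66 in control cells. This SD compares probe sets on the same arrays and holds no variation between tumours, clones or RNA preparations.

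The teratomas expressed these genes and the embryoid bodies hardly did. In embryoid bodies, Muc5b alone lay above the floor in both genotypes, and by little. In teratomas, all 8 genes lay above the floor in both genotypes. Knockout and control teratomas then differed gene by gene: Lcn2 and Scgb1a1 were at least 2-fold higher in the knockout, Reg3b and Scgb3a2 at least 2-fold lower, and Reg3g, Ltf, Muc5b and Scgb3a1 differed by less than 2-fold.

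**Figure D1:**
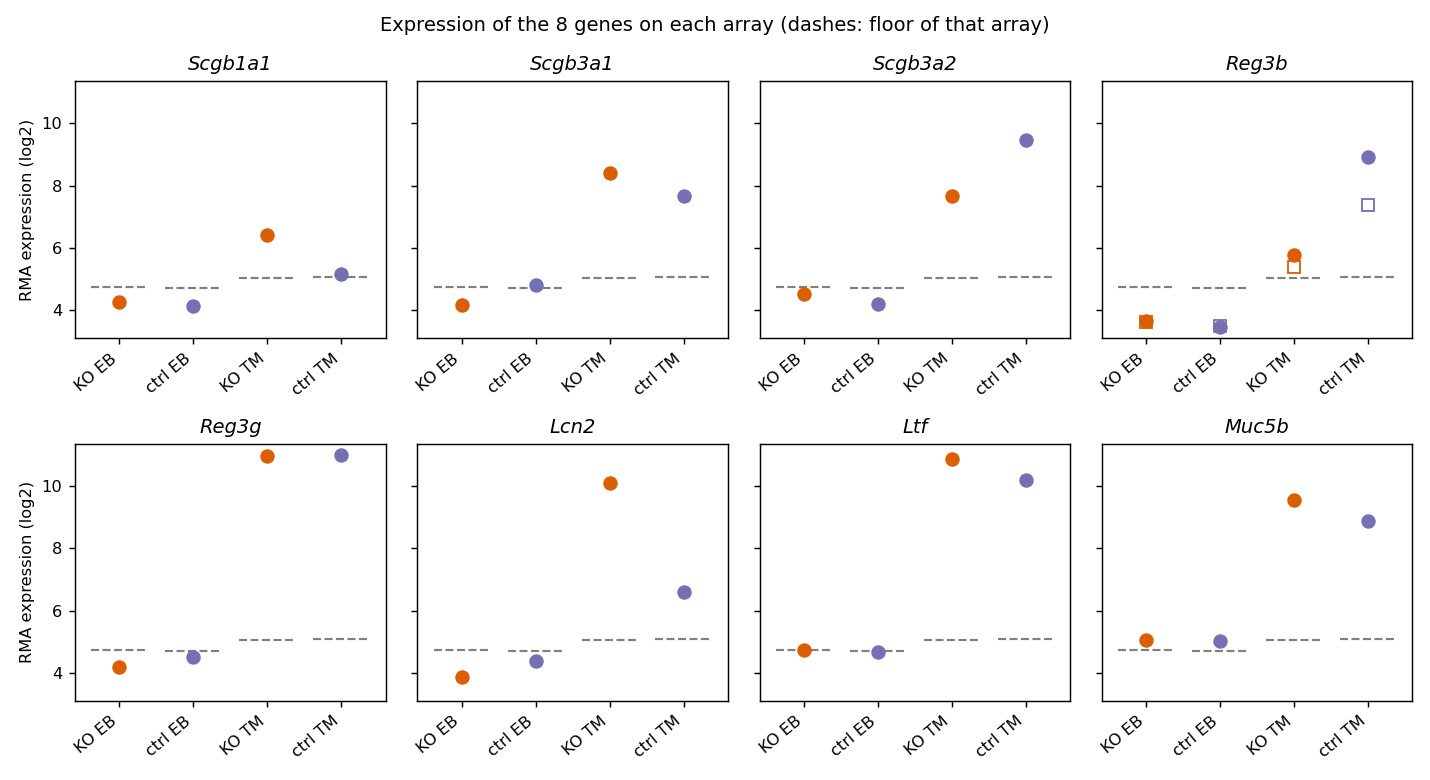
RMA expression (log2) of each gene on the 4 arrays, with Snai1 knockout in orange and F/F control in purple, for embryoid bodies (EB) and teratomas (TM). Filled circles are the probe set with the highest mean, open squares the other Reg3b probe set and dashes the floor of each array. Embryoid body values lie below the dashes except for Muc5b in both genotypes, Scgb3a1 in the control and Ltf in the knockout, which lie just above. Teratoma values reach 10.99 for Reg3g.

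The secretoglobins come first, as the main products of club cells. Scgb1a1, the club cell secretory protein and the classical marker of that cell, read 6.43 in the knockout teratoma and 5.17 in the control teratoma. It read 4.27 in knockout and 4.13 in control embryoid bodies, both below the floor. The control teratoma's value lay just above its floor of 5.08. The knockout teratoma was 2.38-fold higher than the control, a log2 difference of 1.25, and no difference can be given when the floor is placed at the 65th percentile of each array, since both teratomas then lie below it.

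Scgb3a2, a secretoglobin of club cells that appears early in the lung endoderm, had the opposite order. It read 7.65 in the knockout teratoma and 9.48 in the control teratoma, against 4.52 in knockout and 4.21 in control embryoid bodies. The knockout teratoma was 3.53-fold lower than the control, a log2 difference of -1.82, which was the 20th lowest of 12197 measured genes. Scgb3a1, its close relative in airway surface and gland cells, read 8.41 in the knockout teratoma and 7.67 in the control teratoma, a difference of 0.73. In embryoid bodies it read 4.17 in the knockout, below the floor, and 4.80 in the control, just above it. The 3 secretoglobins therefore did not share a direction between the teratomas. Of the family's other genes, Scgb1b2 and Scgb1b27 lay below the floor on all 4 arrays.

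Muc5b, the mucin that forms the mobile gel of the airways, read 9.55 in the knockout teratoma and 8.88 in the control teratoma, a difference of 0.67. It read 5.05 in knockout and 5.03 in control embryoid bodies, a difference of 0.02. Of 10 other mucin genes on the array, 5 were measured in the teratoma comparison and 0 differed by 2-fold, with a median of -0.29. The membrane mucin gene Muc16 was the furthest from 0, at 5.68 in the knockout and 6.67 in the control teratoma. Muc5ac, the other gel-forming mucin of airway goblet cells and of the stomach surface, read 4.42 in the knockout teratoma, below the floor, and 5.34 in the control. Muc2, the intestinal gel-forming mucin, lay below the floor on all 4 arrays.

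The Reg3 lectin genes differed unequally between the teratomas. Reg3b, whose product acts against bacteria and is also known as pancreatitis-associated protein, read 5.79 in the knockout teratoma and 8.92 in the control teratoma, against 3.64 in knockout and 3.48 in control embryoid bodies. Its other probe set read 5.40 in the knockout and 7.37 in the control teratoma, against 3.61 and 3.49 in knockout and control embryoid bodies. Both probe sets had the lower value in the knockout teratoma. The log2 differences between the teratomas were -3.13, or 8.78-fold lower, and -1.96, or 3.90-fold lower. The first was the lowest of all 12197 measured genes.

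Reg3g, whose product binds the peptidoglycan of Gram-positive bacteria, read 10.97 in the knockout teratoma and 10.99 in the control teratoma, a difference of -0.02. It read 4.20 in knockout and 4.50 in control embryoid bodies, both below the floor. Reg3b and Reg3g are the outermost of 6 neighbouring Reg genes on chromosome 6, in the order Reg3b, Reg3d, Reg3a, Reg2, Reg1 and Reg3g. Reg3d, Reg3a and Reg2 lay below the floor on all 4 arrays, as did Reg4. Reg1 lay above the floor in the control teratoma only, at 5.71, against 3.91 in the knockout teratoma, a bound of -0.67.

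The start-site windows of these paralogues are shown because the genes sit in the same cluster and differed so unequally. The sequences are RefSeq's, from build GRCm38.p6, and run 5′ to 3′ from 250 bases before the gene's start to 50 after it. Windows were used for 5 of the 8 genes, Scgb3a1, Reg3b, Reg3g, Lcn2 and Ltf. Any window of the 8 genes on a chromosome set aside beforehand, which holds none of these 5, was left out. A gene not listed may therefore still have a RefSeq window. Capitals mark letters that match, on either strand, CAGGTG, the E-box core bound by Snail factors, TTGCNNAA, a C/EBP motif, TTCNNNGAA, a STAT motif, TATAAA, the TATA box, or the NF-kB consensus.
Reg3b, chr6:78370635-78370934, plus strand: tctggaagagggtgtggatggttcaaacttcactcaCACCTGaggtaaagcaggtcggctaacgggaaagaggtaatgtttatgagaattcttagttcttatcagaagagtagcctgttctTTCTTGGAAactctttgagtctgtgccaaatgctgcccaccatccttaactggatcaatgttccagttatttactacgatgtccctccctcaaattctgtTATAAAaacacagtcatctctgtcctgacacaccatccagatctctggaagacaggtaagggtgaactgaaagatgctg
Reg3g, chr6:78468825-78469124, minus strand: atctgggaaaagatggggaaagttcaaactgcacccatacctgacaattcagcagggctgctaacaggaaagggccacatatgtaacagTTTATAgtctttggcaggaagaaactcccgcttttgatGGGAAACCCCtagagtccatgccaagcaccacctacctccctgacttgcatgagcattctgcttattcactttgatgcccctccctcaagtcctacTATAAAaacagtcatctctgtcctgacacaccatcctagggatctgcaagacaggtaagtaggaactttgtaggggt
Aligned end to end, the Reg3b and Reg3g windows were identical at 207 of 304 alignment columns, 68.1%, whereas the other 9 pairs among the 5 windows had 43.0% to 48.1%. Both hold TATAAA 29 and 27 bases before the start. Reg3g also holds TATAAA on the other strand, from 161 bases before the start. Reg3b holds CAGGTG, read on the other strand from 214 bases before the start, and TTCNNNGAA from 129 bases before it. Reg3g holds neither of those, and holds a match to the NF-kB consensus from 123 bases before the start. Among all 32851 RefSeq windows of this length, 20.2% hold CAGGTG, 8.30% TTCNNNGAA, 13.6% TATAAA and 8.46% the NF-kB consensus. A match describes letters only, and binding was not measured.

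The iron-withholding genes were both high in the knockout teratoma but differed in how far the genotypes lay apart. Lcn2, the lipocalin that captures bacterial siderophores, read 10.09 in the knockout teratoma and 6.61 in the control teratoma, against 3.89 in knockout and 4.39 in control embryoid bodies. The knockout teratoma was 11.2-fold higher, a log2 difference of 3.48 and the 4th highest of 12197 measured genes. Ltf, lactoferrin, read 10.88 in the knockout teratoma and 10.20 in the control teratoma, a difference of 0.67. In embryoid bodies Ltf read 4.74 in the knockout and 4.66 in the control, on either side of the floor. The windows of this pair are shown for comparison with those above, with capitals as before.
Lcn2, chr2:32387690-32387989, minus strand: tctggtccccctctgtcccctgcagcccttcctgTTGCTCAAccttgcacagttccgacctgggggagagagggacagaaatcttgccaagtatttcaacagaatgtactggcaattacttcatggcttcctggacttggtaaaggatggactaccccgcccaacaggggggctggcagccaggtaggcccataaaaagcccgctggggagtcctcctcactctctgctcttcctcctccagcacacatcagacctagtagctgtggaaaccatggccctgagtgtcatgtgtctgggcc
Ltf, chr9:111019042-111019341, plus strand: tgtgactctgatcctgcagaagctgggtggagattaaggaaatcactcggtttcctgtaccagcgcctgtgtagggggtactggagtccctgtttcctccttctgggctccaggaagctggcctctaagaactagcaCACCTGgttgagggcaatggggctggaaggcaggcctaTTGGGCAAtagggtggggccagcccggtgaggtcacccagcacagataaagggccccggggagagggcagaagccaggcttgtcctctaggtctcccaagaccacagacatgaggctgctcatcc
Both windows hold TTGCNNAA, from 216 bases before the start in Lcn2 and from 75 before it, on the other strand, in Ltf. That motif occurs in 10.8% of all windows. Ltf holds CAGGTG, read on the other strand, from 113 bases before the start, and no match to CAGGTG lies in the Lcn2 window.

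Counted together, 2 of the 8 genes were higher by 2-fold or more in the knockout teratoma and 2 were lower by as much, whereas over 12197 measured genes the shares were 3.25% and 1.07%. The median of the 8 differences was 0.67, against 0.06 over all measured genes, with a range of -3.13 to 3.48. Since these differences were known when the genes were listed, nothing is read from the count. Of the 4 genes past 2-fold, Lcn2, Scgb1a1 and Scgb3a2 are read only by a probe set with the suffix _a_at, which in Affymetrix naming marks probes shared by alternative transcripts of a gene. Reg3b has a probe set without such a suffix, and its other probe set carries the suffix _s_at.

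**Figure D2:**
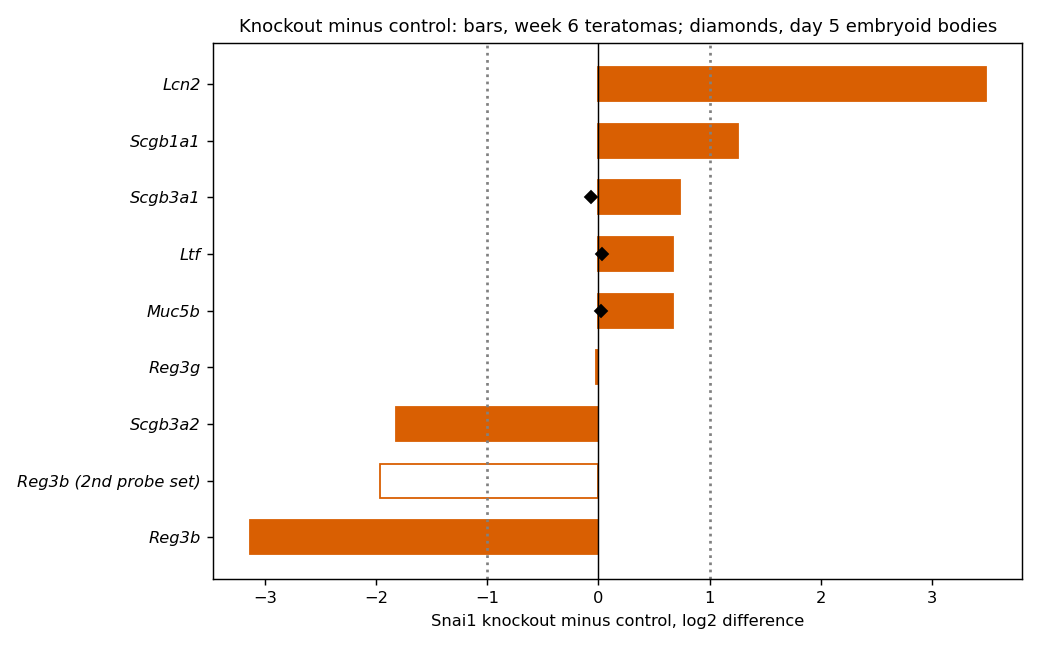
Log2 difference, Snai1 knockout minus control, for each probe set in week 6 teratomas (bars) and, where it could be given, in day 5 embryoid bodies (diamonds). Dotted lines mark 2-fold, and the open bar is the other Reg3b probe set. Bars run from -3.13 for Reg3b to 3.48 for Lcn2, and the 3 diamonds lie within 0.07 of 0.

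In day 5 embryoid bodies a difference between knockout and control could be given for 3 of the 8 genes, at -0.07 for Scgb3a1, 0.03 for Ltf and 0.02 for Muc5b, the first 2 as bounds. None was past 2-fold. Over 12282 measured genes 2.18% were past 2-fold upwards and 3.98% downwards, so with 3 genes nothing is read from this count. For these 3 genes the knockout difference in teratomas exceeded that in embryoid bodies by at least 0.80 for Scgb3a1, at most 0.64 for Ltf and 0.65 for Muc5b, with no interaction test possible. With no floor the Scgb3a1 value was 1.36, past 2-fold. For Lcn2, Reg3b, Reg3g, Scgb1a1 and Scgb3a2 both embryoid body arrays lay below the floor, so the settings cannot be compared.

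Teratomas were then set against embryoid bodies of the same genotype. These contrasts use the same 4 arrays as those above, and they differ in tissue, age, host cells and RNA extraction at once, since teratoma RNA was extracted with Trizol and embryoid body RNA on columns. In Snai1 knockout cells 8 of the 8 genes, and in control cells 7, were at least 2-fold higher in the teratoma, and 0 were lower by 2-fold. Over all measured genes, 19.8% in knockout cells and 16.2% in control cells were higher by that much, and 19.8% and 19.0% were lower. The medians were 4.09 in knockout cells and 4.03 in control cells, against -0.15 and -0.18 over all measured genes. The floors of the teratoma arrays lay 0.31 above those of the embryoid bodies in knockout cells and 0.37 above in control cells.

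Reg3g led both contrasts, at least 75.4-fold higher in the knockout teratoma and at least 77.5-fold higher in the control teratoma than in the matching embryoid bodies. Ltf was 70.4-fold higher in knockout cells and at least 45.1-fold higher in control cells. Muc5b was 22.5-fold and 14.4-fold higher in knockout and control cells, and Scgb3a1 at least 12.8-fold and 7.34-fold higher. For these 4 genes the log2 differences of the genotypes, with readings under the floor raised to it, lay within 0.80 of each other. The knockout value of Scgb3a1 is a lower bound, so its gap was at least 0.80, and it was 1.36 with no floor.

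The bounds of the other 4 genes lay further apart between the genotypes. Both embryoid body readings of each lay below the floor, so these gaps follow the teratoma values and the floors. With no floor the gap was 1.11 for Scgb1a1, smaller than the 1.36 for Scgb3a1. Lcn2 was at least 41.1-fold higher in the knockout teratoma and at least 3.73-fold higher in the control teratoma than in the matching embryoid bodies. Scgb3a2 was at least 7.58-fold higher in knockout cells and at least 27.2-fold higher in control cells. Reg3b was at least 2.08-fold higher in knockout cells and at least 18.5-fold higher in control cells. Its knockout value fell under 2-fold with the probe sets averaged, with each array centred on its median and after quantile normalization, at log2 differences of 0.86, 0.74 and 0.71. Scgb1a1 was at least 3.23-fold higher in knockout cells, and in control cells its bound was 1.38-fold. With the floor at the 65th percentile, Scgb1a1 and Reg3b could not be given in knockout cells, and Lcn2 had a bound of 0.41 in control cells.

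**Figure D3:**
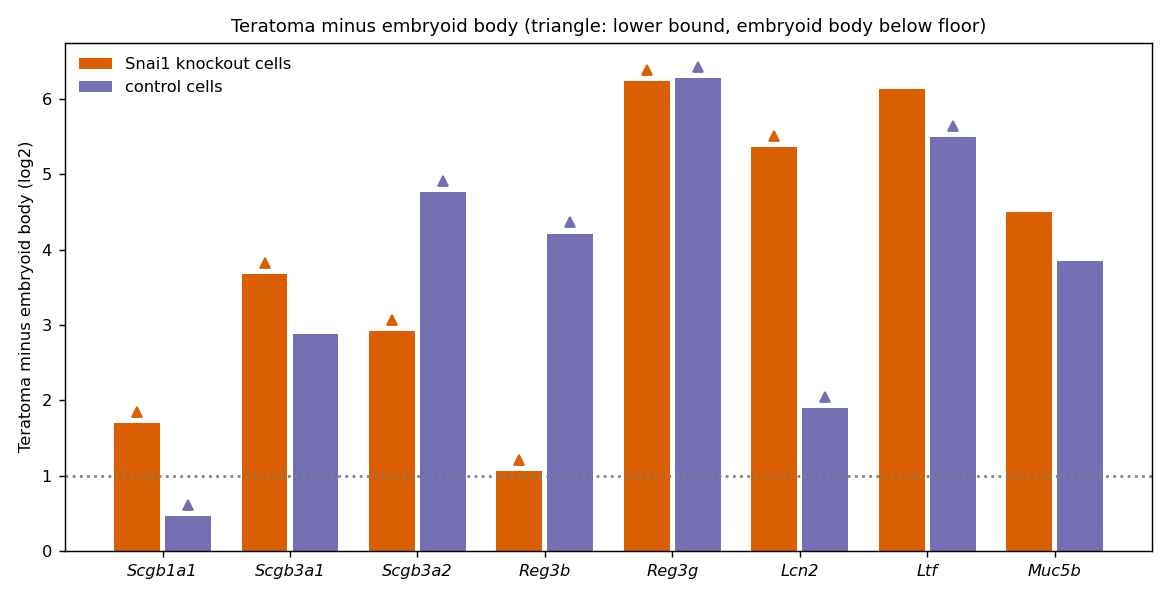
Log2 difference, teratoma minus embryoid body, for each gene in Snai1 knockout cells (orange) and control cells (purple). A triangle marks a lower bound, where the embryoid body value lay below the floor, and the dotted line marks 2-fold. Reg3g reaches 6.24 and 6.28 in knockout and control cells, while Lcn2, Reg3b and Scgb3a2 differ between the genotypes.

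Across the 4 arrays, the order of levels was the same for Scgb3a1, Ltf, Muc5b, Lcn2 and Scgb1a1 in the teratomas, with the knockout above the control, and reversed for Reg3b and Scgb3a2. Reg3g had nearly the same value in both teratomas. Likeness between genes was measured as the root mean square distance between floored log2 values, each centred on its own mean over the 4 arrays. Among the 8 genes the closest pair was Ltf and Reg3g, at 0.33, then Muc5b and Scgb3a1, at 0.45, and Reg3b and Scgb3a2, at 0.76. Reg3b and Reg3g were 2.12 apart.

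Outside the 8 genes, Reg3b was closest to the stomach gastrokine gene Gkn1, at 0.04, then to the smooth muscle myosin gene Myh11 at 0.33 and Gkn2 at 0.38. Scgb3a2 was closest to Mylk, a myosin light chain kinase gene, at 0.19, then Wfdc17 at 0.25 and Serpinb11 at 0.28. Lcn2 had no close neighbour: the muscle oxygen-carrier gene Mb lay at 0.54, the leukocyte antigen gene Ptprc at 0.56 and the neuropeptide gene Adcyap1 at 0.56. Reg3g was closest to the neuronal genes Map2 and Tubb3, at 0.07 and 0.09, and to the muscle gene Tnnc2 at 0.09. Ltf was closest to Gpm6a, Cntn1 and Syt4, at 0.09, 0.12 and 0.12, and Muc5b to Adgrb2, Acta1 and Lin7a, at 0.03, 0.04 and 0.04. Scgb3a1 was closest to Dlg2, Fmn2 and Lrrc4c, at 0.03, 0.04 and 0.04, and Scgb1a1 to Nefh, Trim66 and Tgm1, at 0.03, 0.03 and 0.04. A pattern over 4 arrays is shared by many genes that are high in teratomas.

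Other genes of the airway secretory cell were read beside them, as a check on the name given to the group. Of 13 such genes outside the 8, 11 were measured between the teratomas, 0 were higher and 2 lower by 2-fold or more in the knockout, with a median of -0.34. Bpifa1, an abundant airway surface protein, read 12.44 in the knockout and 13.16 in the control teratoma. Cyp2f2, the club cell cytochrome, read 10.54 and 11.02 in the knockout and control teratoma, against 3.76 and 3.70 in knockout and control embryoid bodies. Both are high in both teratomas. Bpifb1, a relative of Bpifa1, was 2.26-fold lower in the knockout, at 7.28 against 8.46, although its other probe set differed by -0.86, under 2-fold. Agr2, a disulfide isomerase needed for mucin folding, was 2.17-fold lower, at 6.80 in the knockout against 7.91 in the control teratoma. The summed linear intensity of these 13 genes was 9473 in the knockout teratoma and 14120 in the control teratoma, against 737 in knockout and 828 in control embryoid bodies.

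Lung regulators and surfactant genes gave 0 of 14 measured genes past 2-fold between the teratomas, with a median of -0.26. Nkx2-1, the defining regulator of lung and thyroid endoderm, lay below the floor on all 4 arrays, as did the alveolar surfactant genes Sftpa1 and Sftpc. Sftpb, the surfactant gene furthest from 0, read 5.05 in the knockout and 6.04 in the control teratoma. Among goblet cell regulators, Spdef read 4.12 in the knockout and 4.08 in the control teratoma and Foxa3 3.25 and 3.73, all below the floor, against 6.27 and 5.61 for Spdef and 7.96 and 7.50 for Foxa3 in knockout and control embryoid bodies. Creb3l1, a secretory regulator, read 6.19 in the knockout and 6.23 in the control teratoma, against 7.23 and 8.66 in knockout and control embryoid bodies. The secretory products named above were thus read in teratomas without Nkx2-1, Spdef or Foxa3 above the floor there. Of the 17 lung regulator and surfactant genes on the array, Nkx2-1 included, 12 in the knockout and 13 in the control teratoma lay above the floor. In knockout and control embryoid bodies 9 and 11 did. Sftpb in the knockout teratoma was counted at 5.05, against a floor of 5.04. Foxa2 read 9.40 in the knockout and 9.66 in the control teratoma, and Sox2 11.33 and 10.95. Teratoma minus embryoid body, Foxa2 differed by -1.60 in knockout and -0.36 in control cells. Sox2 differed by 1.84 and 1.88, from 9.49 and 9.07 in knockout and control embryoid bodies.

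Several of the 8 genes are made in other tissues that a teratoma can hold. Some stomach and intestine genes were lower in the knockout teratoma beside Reg3b and Scgb3a2. Of 9 measured, 5 were at least 2-fold lower and 0 higher, with a median of -1.42. The 5 were Gkn1, Gkn2, Gkn3, Tff1 and Tspan8. The stomach gene Tff2 differed by -0.41 and Lgals4 by -0.05, and Muc5ac and Fabp2 had bounds of -0.29 and -0.22. Gkn1 read 5.83 in the knockout and 8.85 in the control teratoma, Gkn2 6.59 and 9.62, and Tff1, a trefoil peptide gene of the stomach surface, 9.32 and 11.15. The summed linear intensity of the 17 genes on the array was 1564 in the knockout teratoma and 4751 in the control teratoma, against 769 in knockout and 991 in control embryoid bodies. Cdx1, Cdh17, Fabp1, Krt20, Guca2a and Pgc lay below the floor on all 4 arrays, and Cdx2 and Vil1 in both teratomas. Of pancreatic acinar genes, 6 of 9 lay below the floor on all 4 arrays, including Cpa1, Ptf1a and Ctrb1. The 2 measured between the teratomas went opposite ways. Clps was at least 2.81-fold lower in the knockout teratoma, at 3.85 against 6.53. Cela1 was higher there by less than 2-fold, at 6.83 against 6.33. The summed linear intensity of the acinar genes was 226 in the knockout and 270 in the control teratoma. The part of these tissues in the Reg3b and Scgb3a2 differences was not tested. In bulk RNA, fewer cells of a type and less RNA per cell cannot be told apart.

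Neutrophil genes were read beside Lcn2 and Ltf. Of 15 on the array, 10 lay below the floor on all 4 arrays, among them the granule genes Mpo, Elane, Camp and Ngp and the receptor genes Csf3r and Cxcr2. Of the 4 measured between the teratomas, 2 were at least 2-fold higher in the knockout and 0 lower. S100a8 read 7.97 in the knockout and 4.70 in the control teratoma, at least 7.43-fold higher, and S100a9 6.97 and 4.94, at least 3.70-fold higher. The summed linear intensity of the 15 genes was 702 in the knockout teratoma and 317 in the control teratoma, against 296 in knockout and 324 in control embryoid bodies. Camp and Ngp, which neutrophils store in the same granules as Lcn2 and Ltf, were not above the floor in either teratoma. The part of neutrophils in the Lcn2 and Ltf values was not tested.

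Of 12 leukocyte genes measured between the teratomas, 5 were higher by 2-fold or more in the knockout and 0 lower, with a median of 0.76. Ighm, the antibody heavy chain gene, read 11.25 in the knockout and 5.11 in the control teratoma, where 2 of its 11 probe sets were measured. Ptprc, the common leukocyte antigen gene, read 8.86 and 6.74. Jchain and Ms4a1, genes of antibody-secreting and B cells, read 8.10 and 7.93 in the knockout teratoma and lay below the floor in the control. The macrophage and myeloid genes Adgre1, Csf1r, Tyrobp and Lyz2 differed by -0.48, -0.19, 0.03 and 0.21, and Cd68, a lysosomal gene of macrophages, by 1.10. The summed linear intensity of the 14 genes was 6552 in the knockout teratoma and 2985 in the control teratoma, against 315 in knockout and 506 in control embryoid bodies, and Ighm is the gene with the highest reading in the knockout teratoma sum. Itgam and Cd3e lay below the floor on all 4 arrays. The part of leukocytes in the Lcn2 difference was not tested.

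Lcn2 and the Reg3 genes are known targets of acute-phase and interleukin responses, so other genes of those responses were read too. Of 14 measured between the teratomas, 1 was at least 2-fold higher in the knockout and 0 lower, with a median of 0.08. Socs3, a feedback inhibitor of STAT3 signalling, was 2.09-fold higher, at 8.88 in the knockout against 7.82 in the control teratoma, and its probe sets ranged from 0.90 to 1.06. Cebpd, a C/EBP regulator of acute-phase genes, differed by 0.86, with its other probe set at 0.11, and Saa3, an acute-phase gene, by -0.73. Il6, Saa1, Saa2, Cxcl2, Cxcl5, Csf3, Il1rn and Orm1 lay below the floor on all 4 arrays. Among receptors and regulators of these responses, 0 of 12 measured genes differed by 2-fold, with a median of 0.27, and Il22ra1, the epithelial receptor chain for interleukin-22, lay below the floor on all 4 arrays.

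Of 22 other mucosal defence genes on the array, 14 lay above the floor in the knockout teratoma and 13 in the control. Ang4, Camp, Defb1, Duoxa2, Itln1 and Pla2g2a lay below it on all 4 arrays. Of 15 measured between the teratomas, 2 were at least 2-fold higher in the knockout, S100a8 and S100a9, and 1 lower, Tff1, with a median of 0.05. These are genes already counted above, S100a8 and S100a9 with the neutrophil genes and Tff1 with the stomach genes. Lyz1, the lysozyme of Paneth and airway cells, read 11.90 in the knockout and 11.85 in the control teratoma. Slpi, a protease inhibitor of mucosal fluids, differed by 0.81, and Lgals3, a galectin of epithelia and macrophages, by 0.77. Of genes for receptors that take up or bind these proteins, 0 of 4 measured differed by 2-fold. Slc22a17, a receptor for lipocalin 2, read 11.23 in the knockout and 10.34 in the control teratoma. General epithelial genes gave 0 of 15 higher and 1 lower by 2-fold in the knockout teratoma, Krt8 at -1.02, with probe sets from -1.03 to -0.81. The median was -0.37.

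**Figure D4:**
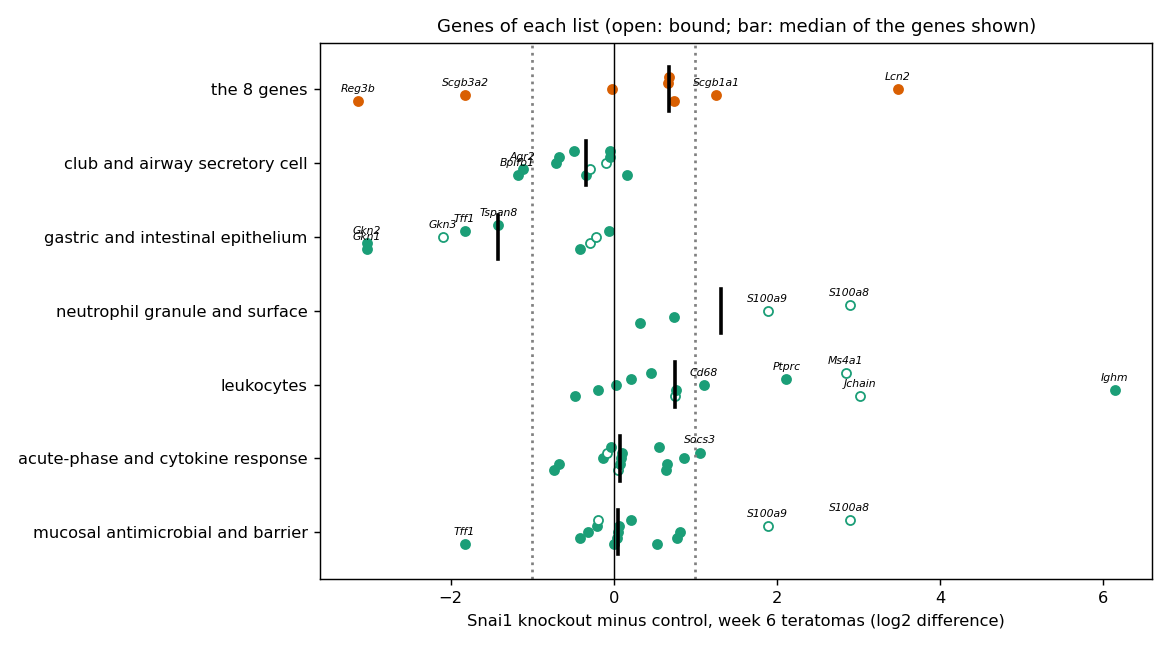
Log2 difference, Snai1 knockout minus control teratoma, for the 8 genes (orange) and for genes of 6 other lists without them (green). Open circles are bounds, black bars are medians of the genes shown and dotted lines mark 2-fold. Stomach genes such as Gkn1 lie on the side of Reg3b and Scgb3a2, and S100a8 and Ptprc on the side of Lcn2.

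The signal of Gapdh at its 3' end minus that at its 5' end, a measure of RNA integrity, was 0.40 in the knockout and 0.65 in the control teratoma, and 0.10 and 0.17 in knockout and control embryoid bodies. For Actb it was larger, at 0.85 in the knockout and 1.03 in the control teratoma, and 0.31 and 0.38 in knockout and control embryoid bodies. Across probe sets, the teratoma arrays correlated at 0.985 and the embryoid body arrays at 0.982, and arrays of different tissues at 0.864 to 0.880.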

How the data were processed

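The authors deposited a table of log2 values, 1 per probe set and array, made with the affy package and RMA per the submitters' processing notes. The sources used here do not name software versions, the chip definition or which arrays were normalized together. Raw scans were not used here. Per the labels' protocols, biotin-labelled amplified RNA was prepared from 250 ng of total RNA. Of 45037 non-control probe sets, 34945 name 1 gene in the platform annotation and 34741 of those matched a RefSeq gene by Entrez number. Each of 18193 genes was read by its probe set of highest mean, and every probe set of the 8 genes is also given. Differences were computed in Python 3.11.15 with pandas 2.3.3, after flooring each array at its 50th percentile, and counted at 2-fold. There is 1 array per group, so no test was run and the number of arrays limits the precision. The code was tested on simulated data. The 8 genes and 14 gene lists were chosen with earlier results of these data known. Some genes are in several lists, so the counts of different lists overlap. Genes outside the 8 were named as the up to 4 list members with the largest absolute difference, those below the floor on all arrays, and the 3 nearest in pattern. Foxa3, Adgre1, Cd68 and Fabp2 were chosen after their values were seen. Alternatives covered the probe set, scaling, floor and fold threshold. Windows were aligned globally with Biopython 1.88.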

Additional observations from a re-analysis of the deposited data

How the results depend on the processing

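Counts of the 8 genes past 2-fold were recomputed 45 times. In 15 of these 0 was set against 0, which says nothing of stability, and 23 of the other 30 stayed within 1.5 times of the reported count. Between the teratomas 4 genes were past 2-fold. Without probe sets whose suffix is _a_at, _s_at or _x_at, 1 remained, Reg3b, because Lcn2, Scgb1a1 and Scgb3a2 have only an _a_at probe set. The teratoma against embryoid body count in knockout cells was then 5. At 1.5-fold the teratoma count was 7 and at 4-fold it was 2. The number of genes whose knockout difference in teratomas and in embryoid bodies lay at least 2-fold apart was 0 of the 3 that could be compared. It was 5 of 8 with the floor at the 25th percentile and 5 of 8 with no floor, and 3 of 3 at 1.5-fold. Without a floor 5 more genes enter, and Scgb3a1, already compared, moves to 1.36. With the floor at the 65th percentile 0 genes could be compared. No gene past 2-fold changed sign under any alternative. No paired analysis was possible because each group has 1 array. Low signal limits the embryoid body comparison, and 1 array per group limits every difference.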
